A study of Mus musculus with 10 samples.

Results

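The genes described here are 10 effectors of the ATF4 stress program: Atf4, Atf3, Ddit3, Ddit4, Trib3, Chac1, Sesn2, Ppp1r15a, Nupr1 and Stc2. They were taken by gene symbol from count files that list 24391 genes, and all 10 were found and were among the 12835 genes tested. The files come from 5 cell lines grown out of mouse small cell lung cancer (SCLC), named G4314, G9351, G9488, G9529 and G9577. Each line was sequenced 1 time as messenger RNA with doxycycline in its medium (MYCN on) and 1 time after 4 days without it (MYCN off), so that transcripts that follow the oncogene MYCN could be found. All 10 cultures, on and off alike, carry the label of altered Rb and p53, a MYCN transgene behind a tetracycline-responsive element, and an rtTA activator behind a lox-stop-lox cassette. No culture received doxycycline without the transgene, so an effect of the drug and an effect of MYCN cannot be told apart. The cell type in which the cassette was opened, and whether a line is clonal or pooled, are not given in the sources used here. The labels do not say that cultures were repeated, and p-values measure the spread between the 5 lines.

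In the integrated stress response, kinases that sense unfolded proteins, missing amino acids, missing heme or double-stranded RNA phosphorylate the translation factor eIF2α. General translation then slows, while ribosomes pass upstream reading frames in the Atf4 transcript and make the transcription factor ATF4, so the level of Atf4 mRNA does not measure ATF4 protein. ATF4 acts on genes for amino acid supply and tRNA charging, and also on a group of effectors that amplify, brake or end the stress response. The 10 genes belong to this second group. Atf3 and Ddit3 (CHOP) encode further transcription factors, Ppp1r15a (GADD34) brings a phosphatase to eIF2α, Trib3 encodes a pseudokinase that dampens ATF4 and AKT, and Chac1 an enzyme that degrades glutathione. Ddit4 (REDD1) and Sesn2 restrain the growth kinase complex mTORC1, Nupr1 encodes a small chromatin protein induced by stress, and Stc2 a secreted glycoprotein.

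Promoter sequences of these genes are shown because ATF4, with a C/EBP partner, binds a composite element whose core can be searched by its letters. RefSeq promoters of build GRCm38.p6, 250 bases before to 50 bases after the start of each gene, were found for all 10 genes. The letters TGATGNAA, on either strand, were in the promoters of 4 of the 10, against 3.97% of 32851 mouse promoters. Counts within a list are of genes with any matching promoter, whereas shares of all promoters are of single promoters. The match stands in capitals and is printed in the direction of the gene. All 4 matches lie on the strand opposite to the gene, so the capitals show the reverse complement of the letters searched.
Chac1, chr2:119351023-119351082, plus strand, match 193 bases before the start: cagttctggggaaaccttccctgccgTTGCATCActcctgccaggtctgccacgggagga
Nupr1, chr7:126625547-126625606, minus strand, match 110 bases before the start: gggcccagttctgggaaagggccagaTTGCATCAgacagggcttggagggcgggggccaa
Atf3, chr1:191183410-191183469, minus strand, match 110 bases before the start: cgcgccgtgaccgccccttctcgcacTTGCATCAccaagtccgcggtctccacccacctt
Trib3, chr2:152344028-152344057, minus strand, match 15 bases after the start: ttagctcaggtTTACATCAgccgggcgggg
The Ppp1r15a promoter lacked those letters and held the cyclic AMP response element TGACGTCA, which was in 1.79% of all promoters and in no other gene of the set.
Ppp1r15a, chr7:45526269-45526306, minus strand, match 12 bases before the start: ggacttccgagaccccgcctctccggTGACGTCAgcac
The E-box CACGTG, the preferred letters of MYC family proteins, was in 7.15% of all promoters and in 1 of the 10, that of Nupr1.
Nupr1, chr7:126625664-126625720, minus strand, match 225 bases before the start: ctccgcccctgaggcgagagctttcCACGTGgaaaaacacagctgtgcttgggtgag
The endoplasmic reticulum stress element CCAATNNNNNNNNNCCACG, searched on both strands, was in 0 of the 10 promoters, in 0.119% of all promoters and in 9 of 20 promoters of unfolded protein response genes. For comparison, TGATGNAA was found for 6 of 19 ATF4 amino acid genes and for 5 of 8 tRNA charging genes. The E-box was found for 2 of these 19, 4 of these 8 and 3 of the 20 unfolded protein response genes. Listed genes without a promoter sequence were left out of these counts. No motif overlapped another in the windows printed. These matches describe letters in a window and are not measurements of binding.

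Libraries held 9586465 to 11960074 counts. Mycn, the check of the labels, was higher with doxycycline in 5 of 5 lines, and its log2 difference was 1.61 in G4314, 2.23 in G9488, 2.85 in G9529, 3.50 in G9577 and 4.16 in G9351. The neuroendocrine identity that defines SCLC was checked with 8 markers. Their summed level was 3125 to 6245 CPM (TMM-scaled counts relative to library size) in the 8 libraries of the other 4 lines, but 170 CPM without and 223 CPM with doxycycline in G9577. Summed epithelial markers (6 genes) were 1715 to 3543 CPM in those 4 lines, against 41.1 and 10.9 CPM in G9577. Summed mesenchymal markers (8 genes) were 2.35 to 23.6 CPM in those 4 lines, with 1 to 4 of the 8 at 0, against 17840 CPM without and 4127 CPM with doxycycline in G9577. Immune markers (4 genes) summed to at most 5.80 CPM, except for 59.9 CPM in the MYCN-off library of G9577, and endothelial markers (3 genes) to at most 2.36 CPM outside G9577, where they were 131 and 35.7 CPM. The expression of G9577 thus goes against its label as a neuroendocrine tumour line, and each effector's fitted value is given with and without it.

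Read line by line, the effectors were higher with MYCN on in G9351, G9488 and G9529, mostly lower in G9577 and divided in G4314. All 10 genes were higher in G9488 and in G9529, 9 of 10 were higher in G9351, 4 of 10 in G4314 and 1 of 10, Atf4 itself, in G9577. Of all genes tested, 49.5% were higher in G9488, 48% in G9529, 49.9% in G9351, 48% in G4314 and 40.7% in G9577, so the count in G4314 is near the share over all genes. The median log2 difference, on minus off, was 2.42 in G9488, 2.05 in G9529, 1.12 in G9351, -0.39 in G4314 and -0.83 in G9577. Over all genes tested the median was -0.01 in G9488, -0.02 in G9529, 0.00 in G9351, -0.04 in G4314 and -0.23 in G9577. Each line has 1 library in each condition, so these differences have no replicate check.

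At least 2-fold higher with MYCN on were 9 of 10 effectors in G9488, where 5.33% of all genes tested were, and 9 of 10 in G9529, where 6.91% were. In G9351 the count was 6 of 10, beside 10.1% of all genes, and in both G4314 (11.8% of all genes) and G9577 (14.3%) it was 0. At least 2-fold lower were 3 of 10 in G4314, namely Atf3, Ppp1r15a and Nupr1, beside 14.4% of all genes. In G9577 the count was 4 of 10, namely Ppp1r15a, Ddit3, Nupr1 and Sesn2, beside 25.9% of all genes. No effector was 2-fold lower in G9351 (9.69% of all genes), G9488 (9.22%) or G9529 (8.92%). The Mycn difference was smallest in G4314 but second only to G9351 in G9577, and its part in the sign of the medians was not tested. The labels do not give the species of the MYCN transgene, so Mycn counts may not measure its level.

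**Figure D1:**
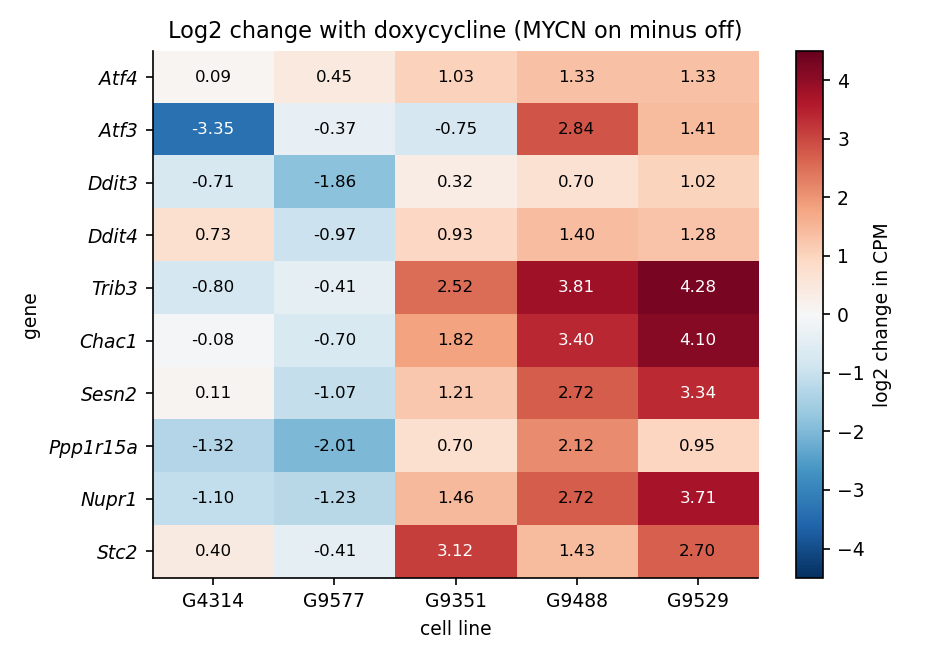
Log2 difference in expression, MYCN on minus MYCN off, of each of the 10 effectors (rows) in each cell line (columns), printed in each cell and coloured red above 0 and blue below 0, 1 pair of libraries a line. G9488 and G9529 are red for all 10 genes and G9351 for 9, whereas 6 genes are below 0 in G4314 and 9 in G9577.

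Depth was not the limit of most of these differences within a line. With an exact 95% interval for the ratio of counts, scaled for library size and covering counting error only, the ratio was above 1 for 10 genes in G9488, 10 in G9529 and 9 in G9351. It was below 1 for 8 genes in G9577, 5 in G4314 and 1 in G9351, and above 1 for 1 in G9577 and 3 in G4314. The interval spanned 1 for Chac1 and Sesn2 in G4314 and for Trib3 in G9577, which had 39 counts on and 44 off.

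Across the 5 lines only Atf4 rose past the threshold. In edgeR's quasi-likelihood test with the line as a block and Benjamini-Hochberg adjustment over all genes, 1 of 10 effectors was called higher and 0 lower at an adjusted p of 0.05. Of all genes tested 15.3% were called higher and 15.6% lower, so the share of effectors called was near or below the background. Atf4 and Stc2 had an unadjusted p below 0.05. The median fitted log2 difference of the 10 was 1.01, against -0.08 over all genes tested. None of the 10 had MYCN-on levels that all lay above or all below its MYCN-off levels, which 9.23% of all genes tested had. The count of effectors called higher was 5 without G9577 and 0 without G9351, G9488 or G9529, and DESeq2 called 4. Of all genes tested, 17.4% were called higher without G9577, 6.32% without G9351, 11.1% without G9488, 11.3% without G9529 and 17.8% in DESeq2.

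Atf4 (mm9 chr15, 80085614 to 80087975, plus strand), the regulator itself, had the highest level per kilobase of the set and, over the 5 lines, the smallest spread of differences (without G9577, Ddit4 had a smaller one). It stood at 466, 360, 218, 333 and 262 CPM with MYCN off in G4314, G9351, G9488, G9529 and G9577, in that order of lines, and at 498, 733, 548, 839 and 358 CPM with MYCN on. The 2 groups overlap, but each line was higher with MYCN on, and G9351, G9488 and G9529 were more than 2-fold higher. Over the lines the fit gave a log2 difference of 0.85 (SE 0.21, adjusted p = 0.0234, edgeR), a 1.8-fold rise. Its log2 difference without G9577 was 0.96, with an adjusted p of 0.0144. Its adjusted p was 0.0859 without G9351, 0.0575 without G9488 and 0.0700 without G9529.

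Atf3 (mm9 chr1, 192994176 to 193007212, minus strand), a repressor and activator induced by many stresses, had opposite differences among lines. With MYCN off it ran from 2.15 CPM in G9488 over 8.72 in G9529, 19.0 in G9577 and 23.0 in G9351 to 112 in G4314. With MYCN on the lines lay close together, at 10.8 CPM in G4314, 13.6 in G9351, 14.7 in G9577, 16.6 in G9488 and 23.5 in G9529. The order of lines was thus nearly turned round, with G4314 highest off and lowest on. Atf3 was 10.4-fold lower in G4314 (95% interval 8.51 to 12.7), while its log2 difference was 2.84 in G9488 and 1.41 in G9529. Fitted over the lines, the log2 difference was -0.04 (SE 0.88, adjusted p = 0.976, edgeR), and it was 0.71 without G4314 and 0.02 without G9577.

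Ddit3 (mm9 chr10, 126727849 to 126733344, plus strand), the transcription factor CHOP that links prolonged stress to cell death, showed smaller differences. With MYCN off it was at 46.2 CPM in G9577, 30.2 in G4314, 25.3 in G9351, 12.2 in G9529 and 11.0 in G9488. With MYCN on it was at 12.6 CPM in G9577, 18.4 in G4314, 31.7 in G9351, 24.8 in G9529 and 17.9 in G9488. The line with most Ddit3 off had least of it on, and the groups overlap. In G9577 it was 3.67-fold lower (95% interval 3.02 to 4.49). Its fit gave a log2 difference of -0.08 (SE 0.43, adjusted p = 0.894, edgeR), and 0.35 without G9577. In the annotation of the files Ddit3 shares exon bases with Mars, and reads over both were not counted for either gene.

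Ppp1r15a (mm9 chr7, 52778288 to 52781638, minus strand), which carries protein phosphatase 1 to eIF2α and so restores translation, varied most with MYCN off. Its MYCN-off levels were 221 CPM in G9577, 56.6 in G4314, 25.1 in G9351, 18.8 in G9529 and 10.6 in G9488. Its MYCN-on levels were 54.6, 22.5, 41.1, 36.4 and 46.5 CPM in the same order of lines. The 5 on levels all lay within the off range. Ppp1r15a was 4.04-fold lower with MYCN on in G9577 (95% interval 3.69 to 4.44) and 2.51-fold lower in G4314 (2.16 to 2.93), whereas its log2 difference was 2.12 in G9488. Over the 5 lines the log2 difference was fitted at 0.09 (SE 0.63, adjusted p = 0.920, edgeR), and 0.64 (adjusted p = 0.346) without G9577. Its sign turned without G9351, without G9488 and without G9529. This gene shares exon bases with Tulp2.

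Trib3 (mm9 chr2, 152163161 to 152169796, minus strand), the pseudokinase that feeds back on ATF4, had the highest single-line difference of the set. With MYCN off it was at 1.27 CPM in G9488, 3.70 in G9529, 4.90 in G9577, 17.0 in G9351 and 46.9 in G4314. With MYCN on it was at 20.4, 75.4, 3.63, 97.9 and 26.9 CPM in the same lines. Trib3 was 20.4-fold higher in G9529 (95% interval 14.9 to 28.5) and 16.0-fold higher in G9488 (9.17 to 30.6), and its log2 difference was 2.52 in G9351. It was at -0.80 in G4314 and -0.41 in G9577, where the ratio of 0.742 had an interval of 0.470 to 1.17. The fitted log2 difference of 1.94 (SE 0.93) had an adjusted p of 0.144 in edgeR and of 0.0113 in DESeq2. It was 2.46 (adjusted p = 0.0611, edgeR) without G9577 and 1.22 (adjusted p = 0.336) without G9529.

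Chac1 (mm9 chr2, 119176978 to 119180062, plus strand), the glutathione-degrading enzyme, had the same high lines as Trib3. It stood at 8.22 CPM in G9488, 6.16 in G9529, 34.8 in G9351, 49.9 in G4314 and 13.3 in G9577 with MYCN off. With MYCN on it stood at 88.4, 109, 123, 47.3 and 8.11 CPM. G9529 was 17.6-fold higher (95% interval 13.9 to 22.8), and G4314 had a ratio of 0.949 (0.838 to 1.07). The fitted log2 difference of 1.72 (SE 0.79) had an adjusted p of 0.132 in edgeR and of 0.0148 in DESeq2. It was 2.31 (adjusted p = 0.0355, edgeR) without G9577 and 1.07 without G9529.

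Of the brakes on mTORC1, Sesn2 (mm9 chr4, 132048722 to 132066371, minus strand), a leucine-binding sestrin, ranged from 3.33 CPM in G9488 to 26.5 CPM in G4314 with MYCN off. The levels between were 5.11 CPM in G9529, 17.0 in G9577 and 22.9 in G9351. With MYCN on it was at 23.1 CPM in G9488, 28.5 in G4314, 53.6 in G9529, 8.01 in G9577 and 53 in G9351. G9577, in the middle when off, was the lowest when on, a 2.13-fold lower level, while G4314 differed by a log2 value of 0.11. The fitted log2 difference was 1.26 (SE 0.68, adjusted p = 0.186, edgeR), and without G9577 it was 1.81 with an adjusted p of 0.0363. Without G9529 it was 0.69.

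Ddit4 (mm9 chr10, 59412423 to 59414518, minus strand), the TSC-dependent mTORC1 inhibitor REDD1, had the smallest spread of differences after Atf4, with an SD of 0.96 over the 5 lines, and a smaller one than Atf4, 0.31 against 0.58, without G9577. It was at 102, 98.1, 103 and 71.3 CPM with MYCN off in G4314, G9351, G9488 and G9529, and at 170, 187, 272 and 173 CPM with MYCN on. In these 4 lines the on and off levels do not overlap, whereas over all 5 lines they do. The share of all genes without overlap was counted over 5 lines only, where it was 9.23%. In G9577 Ddit4 was at 192 CPM off and 97.7 CPM on. The fitted log2 difference of 0.70 (SE 0.34) had an adjusted p of 0.147 in edgeR, and without G9577 it was 1.10 with an adjusted p of 0.00241.

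Nupr1 (mm9 chr7, 133766760 to 133768984, minus strand), the stress-induced chromatin protein, was at 192 CPM with MYCN off in G4314 but at 25.5 in G9351, 10.7 in G9529, 9.69 in G9577 and 8.12 in G9488. With MYCN on it was at 89.4 CPM in G4314, 70.6 in G9351, 143 in G9529, 4.01 in G9577 and 54.4 in G9488. G9577 stood far below the other lines with MYCN on. Nupr1 was 13.3-fold higher in G9529 (95% interval 11.1 to 16.2) and 2.15-fold lower in G4314. Its fitted log2 difference was 1.16 (SE 0.85, adjusted p = 0.317, edgeR). It was 0.44 without G9529, 0.68 without G9488, 1.75 (adjusted p = 0.115) without G9577 and 1.802 without G4314.

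Stc2 (mm9 chr11, 31259441 to 31270061, minus strand), a secreted stanniocalcin, was the effector nearest to the threshold after Atf4. With MYCN off it was at 35.5 CPM in G4314, 5.34 in G9351, 9.88 in G9488, 4.76 in G9529 and 11.7 in G9577, and with MYCN on at 47.1, 47.9, 26.9, 31.9 and 8.76 CPM. It was higher in 4 of 5 lines, and its highest log2 difference, 3.12, was in G9351 and not in G9488 or G9529. The fitted log2 difference of 1.46 (SE 0.55) had an unadjusted p of 0.0325 and an adjusted p of 0.0825 in edgeR. Without G9577 the log2 difference was 1.90 with an adjusted p of 0.0177, and in DESeq2 the adjusted p was 0.0104.

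**Figure D2:**
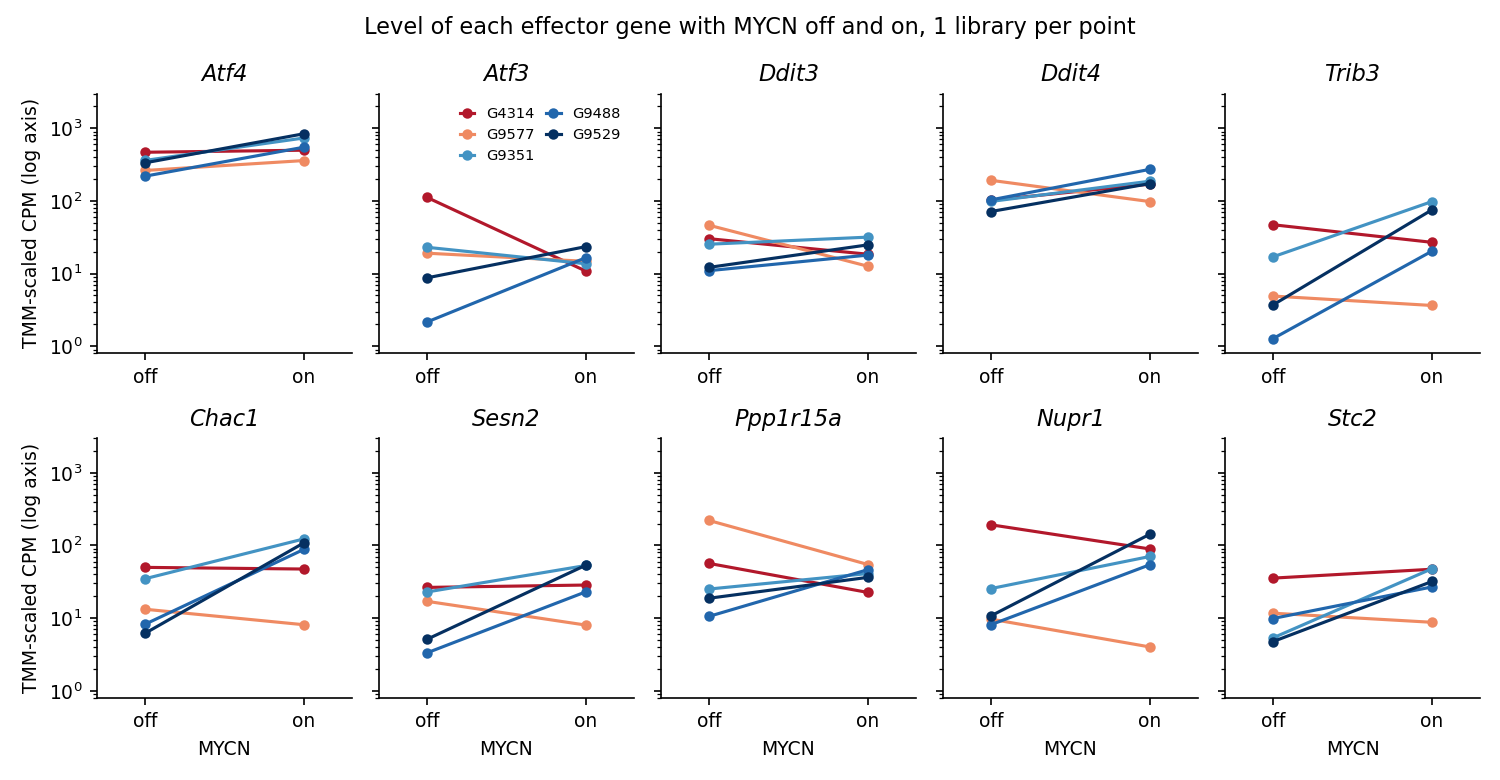
Level of each effector in TMM-scaled CPM (log axis) with MYCN off and on, with 1 line drawn for each cell line. Atf4 slopes upward in every line, whereas the slopes of Atf3 and Ppp1r15a cross and their levels run together with MYCN on.

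Compared per kilobase of transcript, the level with MYCN on was highest for Atf4, at 344 ± 111 CPM per kb (SD, n = 5 lines). Nupr1 at 116 ± 81.1 and Ddit4 at 107 ± 36.8 CPM per kb followed and do not differ beyond their spread. Chac1 was at 47.9 ± 30.01 CPM per kb, and the remaining 6 genes lay between 8.01 (Atf3) and 24.2 CPM per kb (Ddit3), within the spread of their neighbours. With MYCN off Atf4 was at 190 ± 55.3 CPM per kb and the lowest was Sesn2, at 5.63 ± 3.91.

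The lines already differed before the comparison of conditions. With MYCN off, G4314 had the highest level of 7 effectors and G9577 that of the other 3, Ddit3, Ddit4 and Ppp1r15a. The lowest MYCN-off level was in G9488 for 7 effectors and in G9529 for 3. With MYCN on, G9577 had the lowest level of 8 effectors and G4314 that of Atf3 and Ppp1r15a. The lines whose effectors were higher with MYCN on include those that began lowest, and since the off level enters the difference, the 2 are not independent.

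The spread of the log2 difference over the 5 lines was wide for most of the set. Its SD was 2.36 for Trib3, 2.34 for Atf3, 2.23 for Nupr1 and 2.09 for Chac1, each above that of at least 99.5% of all genes tested. It was 1.82 for Sesn2, 1.71 for Ppp1r15a, 1.49 for Stc2, 1.18 for Ddit3, 0.96 for Ddit4 and 0.55 for Atf4, the last at percentile 61.2. The median SD was 1.76 for the effectors and 0.45 for all genes tested. Without G9577 these medians were 1.45 and 0.33, and the SD of Ddit4 was 0.31, at percentile 46.2, below that of Atf4 at 0.58, percentile 78.2. The set was proposed for its unevenness, so these values are a description.

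The 2 conditions also differed in how far apart the lines stood. For Atf3 the highest line was 51.9-fold above the lowest with MYCN off and 2.18-fold with MYCN on, and for Ppp1r15a the ranges were 20.9-fold and 2.42-fold. Nupr1 and Chac1 went the other way, with 23.7-fold off against 35.7-fold on, and 8.10-fold off against 15.2-fold on. The median SD of log2 CPM over the lines was 1.31 off and 0.76 on for the effectors, against 0.58 and 0.52 for all genes tested. The SD was larger off than on for 6 of 10 effectors, and the difference between conditions was not tested.

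**Figure D3:**
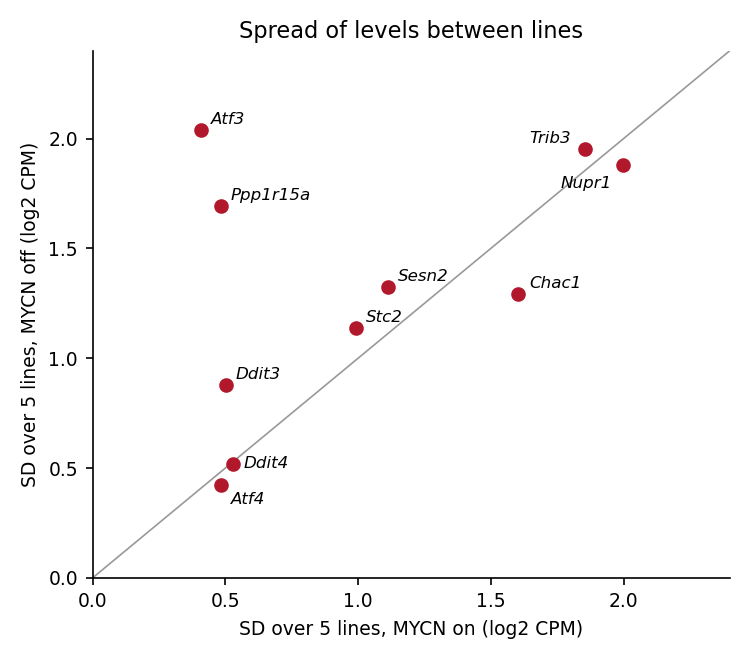
SD of log2 CPM over the 5 lines with MYCN on (x axis) and with MYCN off (y axis) for each effector, with a grey line of equal spread. Atf3 and Ppp1r15a lie far above that line, with 2.04 off against 0.41 on and 1.69 off against 0.48 on, whereas Trib3 and Nupr1 have a wide spread in both conditions.

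Other branches of the ATF4 program gave calls that the effectors did not. Of 24 amino acid genes, 16 were called higher and 0 lower, with a median fitted log2 difference of 1.76, and without G9577 21 were called higher. Psat1 and Phgdh, enzymes of serine synthesis, rose 7.03-fold and 6.69-fold, the proline enzyme Aldh18a1 rose 4.17-fold and the aspartate aminotransferase Got1 2.64-fold (each adjusted p = 0.00265, edgeR). The median per line was positive in every line, at 0.92 in G4314, 2.07 in G9351, 1.77 in G9488, 2.46 in G9529 and 1.46 in G9577. Of 13 genes for tRNA charging and export, 12 were called higher and 0 lower (7 without G9351), with Iars at 3.25-fold, Gars at 3.02-fold, Tars at 2.84-fold and Mars at 2.36-fold. Their medians ran from 0.70 in G4314 to 1.55 in G9529, with 1.20 in G9577. In G9577, 18 of 24 amino acid genes and 13 of 13 tRNA charging genes were higher, beside 9 of 10 effectors that were lower. The other 6 amino acid genes were lower in G9577, 2 of them at least 2-fold. Of all genes tested, 40.7% were higher and 57.7% lower in that line. No test was run for this contrast between the lists. The asparagine synthetase gene Asns had log2 differences of 0.58 in G4314 and 2.21 in G9577, where Trib3 was at -0.80 and -0.41.

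Secreted and other ATF4 targets had their highest log2 differences in G9351, G9488 and G9529. Of 5 genes tested out of 6, 3 were called higher: the hormone gene Fgf21 at 12.0-fold, the peptide gene Adm2 at 12.1-fold and the translation repressor gene Eif4ebp1 at 7.12-fold (adjusted p 0.0168, 0.0301 and 0.0245, edgeR). Their median was 3.36 in G9351, 5.02 in G9488 and 4.93 in G9529 but 0.20 in G4314. In G9577 Fgf21 had 0 counts off and 1 on and Adm2 0 and 4, too few to give a difference, while Eif4ebp1 was at 1.17. The count of these genes called higher was 0 without G9351, 0 without G9529, 1 without G9488 and 4 without G9577. Vegfa, the angiogenic growth factor gene, was at 3.36, 5.61 and 5.40 in those 3 lines and at -2.60 in G9577, with a fitted log2 difference of 2.61 (SE 1.48, adjusted p = 0.208, edgeR).

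Upstream of ATF4, 8 of 18 genes for eIF2, its exchange factor eIF2B, its kinases and its phosphatase were called higher and 1 lower, with a median of 0.32. The eIF2 subunit genes Eif2s2 and Eif2s1 rose 2.5-fold and 2.08-fold, and the eIF2B subunit genes Eif2b3 and Eif2b5 rose 2.56-fold and 1.72-fold. The gene called lower was the kinase gene Eif2ak2 (PKR), with a log2 difference of -0.83 (adjusted p = 0.0224, edgeR). Without G4314 the count called higher was 3 and without G9351 it was 5. Of all genes tested, 6.64% were called higher without G4314 and 6.32% without G9351, against 15.3% with all 5 lines. The call of Eif2ak2 was lost without G9351, G9488 or G9529. The kinase genes Eif2ak3 (PERK) at -0.25, Eif2ak1 (HRI) at 0.15 and Eif2ak4 (GCN2) at 0.02 did not pass. Phosphorylation of eIF2α was not measured.

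Of 15 tested genes for partners and relatives of ATF4 among bZIP factors, 0 were called higher and 2 lower, Maf at -2.30 and Cebpd at -2.32 on the log2 scale (adjusted p 0.0279 and 0.0377, edgeR). Without G9577 3 were called higher and 1 lower, and DESeq2 called 1 higher. Without G9351 or without G9488 none was called lower, and without G4314 or G9529 1 was. Atf5 and Cebpb were higher and lower in the same lines as the effectors. Atf5 was at -0.13 in G4314, 2.11 in G9351, 2.14 in G9488, 3.56 in G9529 and -1.13 in G9577, and Cebpb at -0.59, 1.93, 2.71, 2.04 and -2.15. Neither passed the test, with adjusted p of 0.176 and 0.416. Of 5 targets of CHOP 0 were called higher and 1 lower, the pro-apoptotic gene Bcl2l11 at a log2 difference of -0.60 (adjusted p = 0.0387, edgeR). No CHOP target was called lower without G4314, G9351, G9488 or G9529, and 1 was called higher without G9577.

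**Figure D4:**
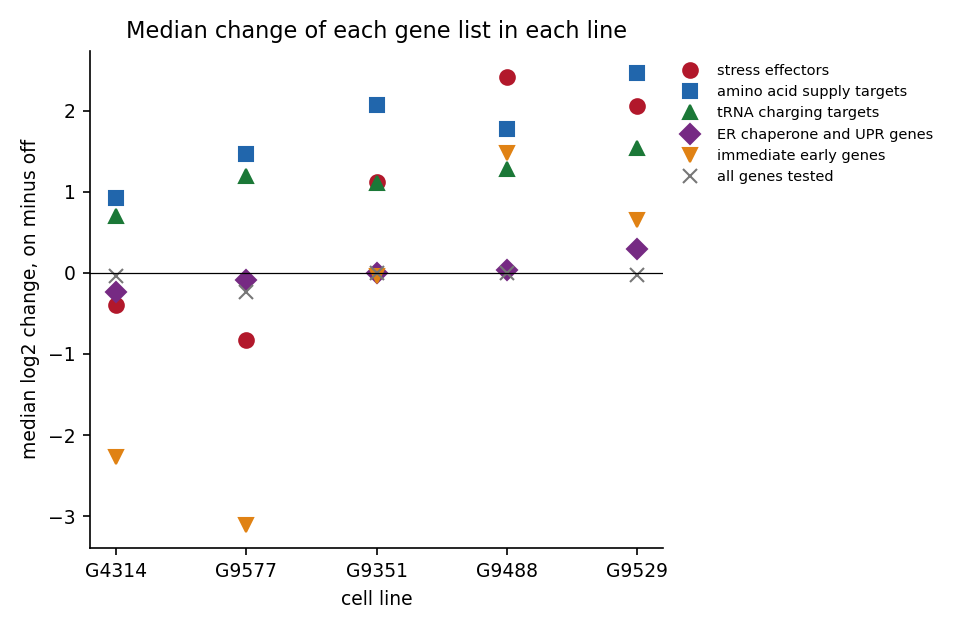
Median log2 difference, MYCN on minus MYCN off, (y axis), of 5 gene lists and of all genes tested in each cell line (x axis), 1 pair of libraries a line. Amino acid and tRNA charging genes lie above 0 in all 5 lines, whereas the effectors lie at -0.39 and -0.83 and the immediate early genes at -2.27 and -3.11 in G4314 and G9577.

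The unfolded protein response of the endoplasmic reticulum, another route to these effectors, showed little difference when fitted over the 5 lines. Of 24 genes 2 were called higher and 1 lower, with a median of 0.02. Read by line, the median was -0.24 in G4314, where 19 of 24 were lower, and -0.09 in G9577, where 13 were. Of all genes tested 52% were lower in G4314 and 57.7% in G9577, with medians of -0.04 and -0.23. The count in G9577 is thus near the share over all genes. The median of the 24 was 0.00 in G9351, 0.03 in G9488 and 0.29 in G9529. At least 2-fold lower were 3 of 24 in G4314 and 3 in G9577, beside 14.4% and 25.9% of all genes. The part of these genes in the differences among lines was not tested. Pdia4 rose 1.40-fold and Manf 1.39-fold, and Syvn1 fell by 0.57 on the log2 scale. The chaperone gene Hspa5 (BiP) had a log2 difference of -0.12 (SE 0.16, adjusted p = 0.564, edgeR). Without G4314 none of the 24 was called, and without G9577 3 were called higher. The count called higher was 0 without G9529 and 1 without G9351 or G9488, and the count called lower was 0 without G9351 or G9488 and 3 in DESeq2. Of all genes tested, 6.64% were called higher without G4314, 6.32% without G9351, 11.1% without G9488 and 11.3% without G9529.

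Hypoxia and p53 also act on Ddit4, Sesn2 and Vegfa, and their target lists were set beside the effectors. Of 12 hypoxia genes tested, 3 were called higher and 1 lower, with a median of 0.16: the glycolytic regulator gene Pfkfb3 rose 4.03-fold, the glucose transporter gene Slc2a1 1.71-fold and Egln1 1.27-fold, and Pfkfb4 fell 2.04-fold. Without G4314, G9351, G9488 or G9529 the count called higher was 1, and without G9351 or G9488 none was called lower. Of 11 p53 target genes tested, 2 were called higher (Aen and Bax) and 3 lower (Perp, Trp53inp1 and Sesn1), with a median of -0.58. The count called higher was 1 without G4314, G9351, G9488 or G9529. The count called lower was 1 without G4314 or G9488, and 5 in DESeq2 and in limma-voom. With G4314, G9351, G9488 or G9529 left out, 6.32% to 11.3% of all genes tested were called higher, against 15.3% with all 5 lines. All cultures carry an altered p53 gene.

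Immediate early genes, which respond within minutes to handling, serum and growth factors, were set beside the effectors. Of 13 tested, 0 were called higher or lower in edgeR and 1 had an unadjusted p below 0.05, with 1 called lower in DESeq2. Without G9577 1 was called higher and 1 lower, and without G9488 1 was called lower. Their median log2 difference was 1.48 in G9488, 0.65 in G9529, -0.04 in G9351, -2.27 in G4314 and -3.11 in G9577. In G9351, where 9 of 10 effectors were higher, 6 of 13 immediate early genes were. Their summed level with MYCN off was 293 CPM in G9488, 449 in G9529, 1284 in G9351, 1976 in G4314 and 5920 in G9577, and with MYCN on it was 474 to 1200 CPM in all lines. The transcription factor gene Egr1 was at 8.31 CPM off in G9488 and at 1450 CPM off in G9577, against 120 and 223 CPM on. Btg2, an antiproliferative gene, was lower in 5 of 5 lines and so did not share the positive list median of G9488 and G9529. It was at -0.82 in G4314, -0.64 in G9351, -0.19 in G9488, -0.44 in G9529 and -3.55 in G9577 (adjusted p = 0.128, edgeR). Its differences had the same order of lines as the list medians. With MYCN off, G9577 and G4314, the highest in summed immediate early genes, were also the highest in Ddit3, Ppp1r15a and Stc2. The other effectors did not have that order. With MYCN off, G9577 was below G9351 in Atf4, Atf3, Trib3, Chac1, Sesn2 and Nupr1, and G4314 was below G9488 in Ddit4. The part of the immediate early genes in the result was not tested, nor was that of the mesenchymal markers of G9577.

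By root mean square difference over the 5 lines from the median pattern of the effectors, the most similar of 11339 genes were Fut1 (0.41), Prss8 (0.48), Adam15 (0.54), Otub2 (0.57), Slc3a2 (0.61) and Pwwp2b (0.64), against a median of 1.66. None of the 6 was called in edgeR. Slc3a2, the heavy chain of amino acid transporters, is itself on the amino acid list and was at 0.25 in G4314, 1.91 in G9351, 1.56 in G9488, 2.35 in G9529 and -0.99 in G9577. Fut1, a fucosyltransferase gene, was at -0.27, 1.07, 2.68, 2.26 and 0.00 in the same lines. A difference of exactly 0, as in G9577, is what a gene without counts in both libraries takes. It may thus be no measured difference. The effector median in G9577 was -0.83, so this 0 added to the root mean square difference of Fut1.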

How the data were processed

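Polyadenylated RNA was sequenced from 10 cultures, 5 lines with and without doxycycline. The authors deposited raw counts per gene for each library, which per the file headers were made by featureCounts 1.6.0 on mm9 gene models without strand and without multimapping reads. Per the submitters' processing notes, bcl2fastq 1.8.4 and STAR 2.5.2a came before. Reads over 2 genes were not counted.

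Genes were kept with edgeR's filterByExpr (minimum count 10), leaving 12835, which held 93.9% to 99.9% of the counts of each library, and were scaled by TMM. The test was edgeR 4.0.16 (R 4.3.3), quasi-likelihood, line as block, 2-sided, Benjamini-Hochberg adjusted over all genes tested, with a threshold of 0.05 and 4 residual degrees of freedom. The biological coefficient of variation was 28.5%. The script was tested on simulated data. For single lines, log2 CPM was computed with 2 as the prior count. The line pairs the libraries by the labels: deviations of the on and off library of a line correlated with r of 0.721 to 0.873, and with other lines by at most 0.273. All headers name the same sequencing run, so no batch was modelled.

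The 10 genes and the other lists were chosen with earlier results of these data known, and the motifs after seeing them. Named were all 10, up to 4 called genes of smallest p from each other list (or the 2 of highest mean CPM where none was called), the 6 most similar genes and Mycn. Asns, Atf5, Cebpb, Vegfa, Bax, Hspa5 and the eIF2 kinase genes were added after their values were seen. Similar genes needed a mean CPM of 5. Alternatives were no line block, DESeq2 1.42.0, limma-voom (limma 3.58.1), RLE scaling, library size alone, other filters, a prior count of 0.5, a fold of 1.5 and leaving out each line.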

Additional observations from a re-analysis of the deposited data

Results flagged for a closer look

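In 30 groups of 5 values (the difference and both levels of each of the 10 genes), Dixon's test at its critical value of 0.71 picked out 2 values, both in G9577, and chance flags about 1 in 20 groups. Ddit4 had a log2 difference of -0.97 in G9577, while the nearest line stood at 0.73. Nupr1 had a log2 CPM of 2.07 with MYCN on in G9577, while the nearest line stood at 5.77. G9577 is also the line in which the neuroendocrine markers were low and the mesenchymal markers high, and their part in these values was not tested.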

How the results depend on the processing

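The count of effectors called higher (1) was 0 with no replicate block and 4 with DESeq2 (Atf4, Chac1, Stc2 and Trib3). It ranged from 0 to 5 with each line left out, where 0 came without G9351, G9488 or G9529 and 5 without G9577. Of all genes tested, 1.68% were called higher with no replicate block, 17.8% with DESeq2 and 17.4% without G9577. That share was 6.32% without G9351, 11.1% without G9488 and 11.3% without G9529. The count of effectors called lower was 0 under all 12 alternatives. The median fitted difference of the set kept its sign in all 12. With no replicate block, that is without pairing the libraries by line, the log2 difference of Atf4 was 0.86 (adjusted p = 0.113, edgeR) and that of Ppp1r15a turned to -0.72. All genes called were then 215 higher and 59 lower, against 1969 and 2004 with the block. Ppp1r15a was also negative in limma-voom, at -0.28. DESeq2 brought Trib3 (1.96), Chac1 (1.69) and Stc2 (1.43) past the threshold.

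With lines left out in turn, log2 differences ranged from 0.71 to 1.02 for Atf4, -0.68 to 0.71 for Atf3, -0.40 to 0.35 for Ddit3, and -0.39 to 0.64 for Ppp1r15a. They ranged from 0.52 to 1.10 for Ddit4, 1.07 to 2.31 for Chac1, 0.69 to 1.81 for Sesn2, 1.01 to 1.90 for Stc2, 0.44 to 1.802 for Nupr1 and 1.22 to 2.69 for Trib3. The sign turned for Atf3 without G4314 (0.71), G9351 (0.23) or G9577 (0.02), for Ddit3 without G4314 (0.07) or G9577 (0.35), and for Ppp1r15a without G9351 (-0.12), G9488 (-0.39) or G9529 (-0.20). The cause was not tested. With a fold of 1.5 in place of 2, 1 effector was past it higher and 5 lower in G4314, and 1 lower in G9351. The count higher was then 8 in G9351 and 10 in G9488 and in G9529, and the count lower 6 in G9577. With RLE scaling the count 2-fold higher was 5 in G9351 and 8 in G9529. With library size alone the count 2-fold lower was 3 in G9577. Of 55 per-line alternatives 52 were labelled the same, which allowed counts within a factor of 1.5 and medians of equal sign within 1.445. Genes called among all tested fell to 852 higher and 916 lower without G4314, to 813 and 916 without G9351, and to 1280 lower without G9488. The amino acid genes called higher were 6 with no replicate block, and the tRNA charging genes 7, also 7 without G9351. Depth did not limit most effectors in a line, where intervals cover counting error only, but 1 library a condition leaves the spread between cultures unknown. Protein, translation and phosphorylation were not measured.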
